A study of Mus musculus with 7 samples.

Results

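The 8 genes described here are S100a8, S100a9, Retnlg, Ngp, Lcn2, G0s2, Hdc and Csf3r, which code for neutrophil granule proteins, alarmins and other products abundant in neutrophils, read in single-cell RNA sequencing of mouse pancreas. They were picked by name, with their levels in these same mice already known, from 33864 genes listed in the 3 count tables, 1 table for each group of mice. Of the 8, all are listed in the WT and i4F tables and 7 in the caerulein table, where Ngp has no entry. Ngp entered the fits and plots of caerulein mice as 0, but since abundant acinar genes also have no entry in the tables, its level in those mice is not read from this. Because the genes were picked from these values, their levels are given as a description, and the tests place the differences against the spread between mice without being independent evidence of them.

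The study asked how immune cells take part in reprogramming of the pancreas inside the animal. All mice were C57BL/6, aged 2 months per the labels. WT mice (n = 2) had a wild-type genotype and drank doxycycline at 1 mg/ml with 7.5% sucrose for 7 days. The i4F mice (n = 3, genotype i4F-B) had the same water and carry, per the study's methods, a doxycycline-inducible cassette of the 4 reprogramming factors Oct4, Sox2, Klf4 and c-Myc inserted in Pparg, with the rtTA activator in Rosa26, each in 1 copy. The caerulein mice (n = 2) had a wild-type genotype and received caerulein, a cholecystokinin analogue that overstimulates acinar cells and gives mild acute pancreatitis, at 100 µg/kg in 7 hourly injections on each of 2 days. They were killed on day 4, and the labels name no doxycycline for them. Since rtTA is driven from Rosa26, a locus active in most cell types, the cassette is not limited to 1 cell type, and whether leukocytes carried it in active form was not analysed here. The WT mice serve both comparisons, so the i4F and caerulein differences share their controls. UMIs (unique molecular identifiers, each standing for 1 captured RNA molecule) of rtTA numbered 16 and 3 in WT, 2571, 1824 and 722 in i4F, and 7 and 1 after caerulein, in the order of the labels.

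Neutrophils are short-lived phagocytes that mature in the bone marrow, load ready-made proteins into granules in a fixed order, and enter tissue within hours of injury. S100a8 and S100a9 code for the paired calcium- and zinc-binding proteins of calprotectin, which fill the neutrophil cytoplasm and act as alarmins when released. Ngp and Lcn2 code for proteins of the secondary granules, and Lcn2, a lipocalin that captures bacterial iron carriers, is also made by stressed epithelium. Retnlg codes for a resistin-like secreted protein. Hdc codes for the enzyme that makes histamine from histidine. Csf3r codes for the receptor for G-CSF, the growth factor that drives neutrophil production, and G0s2 codes for an inhibitor of the lipase ATGL, best known from fat tissue.

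In GENCODE release M21 (mm10, GRCm38), S100a8 lies at chr3:90668978-90670035 on the plus strand and S100a9 at chr3:90692632-90695721 on the minus strand, 22596 bases apart within the S100 cluster. Ngp lies at chr9:110419747-110423012 (plus), Retnlg at chr16:48872621-48874496 (plus) and Csf3r at chr4:126024550-126044440 (plus). Lcn2 lies at chr2:32384633-32388252, Hdc at chr2:126593667-126619299 and G0s2 at chr1:193272161-193273217, all on the minus strand. The promoters of the 8 genes, all found in RefSeq's GRCm38.p6 sequences (250 bases before to 50 after the transcription start), were searched on both strands for TTGCNNAA, a core that C/EBP factors bind, and GAGGAAGT, a core that PU.1 binds, since these factors direct granule gene programmes in myeloid cells. TTGCNNAA was found in 4 of 8 members, against 10.8% of 32851 promoters, and GAGGAAGT in 1 of 8, against 3.20%. The following 4 stretches run from 250 to 101 bases before the start and are shown because S100a8 and S100a9 share a pattern of levels while Ngp and Lcn2 depart from it; capitals mark the match on the gene's strand. Positions are counted from RefSeq's start, which lies 93 bases downstream of the GENCODE gene start for S100a8, 61 for Ngp and 513 for Lcn2, and at it for S100a9. They lie at chr3:90668821-90668970 (plus), chr3:90695822-90695971 (minus), chr9:110419558-110419707 (plus) and chr2:32387840-32387989 (minus).
S100a8: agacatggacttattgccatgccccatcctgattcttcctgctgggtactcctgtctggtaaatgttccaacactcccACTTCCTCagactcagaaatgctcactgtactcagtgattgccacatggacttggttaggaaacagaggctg
S100a9: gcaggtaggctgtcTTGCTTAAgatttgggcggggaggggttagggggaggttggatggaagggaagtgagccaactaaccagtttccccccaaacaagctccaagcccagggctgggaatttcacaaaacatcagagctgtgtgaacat
Ngp: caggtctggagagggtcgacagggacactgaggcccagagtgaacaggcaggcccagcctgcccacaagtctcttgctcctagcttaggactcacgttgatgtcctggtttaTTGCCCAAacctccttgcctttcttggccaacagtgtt
Lcn2: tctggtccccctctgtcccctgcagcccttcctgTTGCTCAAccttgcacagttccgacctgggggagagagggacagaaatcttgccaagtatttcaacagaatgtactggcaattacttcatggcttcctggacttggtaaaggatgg
The matches begin 172 bases before the start in S100a8, 236 in S100a9, 138 in Ngp and 216 in Lcn2. Ngp holds another match 11 bases before the start and Retnlg one at 246 bases, both outside the stretches shown. Most of the Lcn2 stretch is also a coding exon of an alternative GENCODE transcript that starts further upstream. A match describes letters only, and binding was not measured.

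The libraries held 4327 and 6326 cells from WT mice, 9811, 8218 and 7614 from i4F mice, and 15138 and 7039 from caerulein mice, 58473 in all, with 15469018 to 64784216 UMIs a library. Cells were grouped by the authors' own cluster labels, which were made separately in each group, so a label number in WT does not name the same cells as that number elsewhere. The third i4F library stood apart: its median was 1248.5 UMIs a cell against 4247 and 2512.5 in the other i4F mice, and it held 480 cells with a macrophage label against 3495 and 3257. Results that rest on i4F 3 are therefore given with and without it. Any pair of libraries shared 3 to 39 cell barcodes. The ductal label carried the duct keratin gene Krt19 at 609 to 1126 CPM (counts per 1000000 UMIs of the same cells), against at most 57.2 CPM in endothelial labels. The library names fall in 2 series, AL with WT 1 and the i4F mice and AM with WT 2 and the caerulein mice, and what the series stand for is not stated. With the series as a term no comparison below called a member (smallest edgeR adjusted p = 0.0645, for Hdc in stellate cells of i4F mice), and all 43 differences that were called with all mice or, for i4F against WT, without i4F 3 kept their direction, as in ductal Lcn2 after caerulein (log2 difference 5.32, edgeR adjusted p = 0.246). All 8 acinar markers on the marker list were without an entry in the tables, so the acinar label could not be checked against them and is used as given. The i4F label Acinar_1 carried macrophage markers at 156 to 8306 CPM, against at most 1140 CPM in the other acinar labels. The part of leukocyte RNA in the acinar levels of i4F mice was not tested.

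No label names neutrophils. A label called Macrophages_2 in i4F mice and Macrophages_3 in caerulein mice carried the highest level of every member with UMIs there except Lcn2 and, outside the members, the neutrophil markers. Of 16 neutrophil markers that exclude the members (such as Cxcr2, Ly6g, Camp, Ltf, Mmp8 and Asprv1), 16, 16 and 15 had UMIs in the i4F label and 15 and 11 in the caerulein label. Their summed level was 11672, 18233 and 53129 CPM in the i4F mice and 5790 and 5442 CPM in the caerulein mice, against 78.9 to 1850 CPM in every other macrophage label and at most 2786 CPM in any other label (Acinar_1 of i4F 2). Markers of macrophages such as C1qa and Adgre1 summed to 112 to 1439.6 CPM there and to at least 11936 CPM in the labels called Macrophages_1. Both labels are called neutrophil-like here. They held 359, 435 and 15 cells in the i4F mice and 630 and 84 in the caerulein mice, with medians of 438, 483, 932, 328 and 286 UMIs a cell, all below the median of their library. Markers of mast cells and basophils, other sources of histamine, were at or near 0 in both, the highest sums being 4.09 CPM for mast cells (i4F 2) and 22.2 CPM for basophils (caerulein 1). WT mice had no such label. Of the WT macrophage labels, Macrophages_2 (59 and 96 cells) had the higher neutrophil marker sum, 1101 and 484 CPM, chiefly Il1r2, and was led by antigen presentation genes such as H2-Ab1 and Cd74.

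S100a8 and S100a9 UMIs came mostly from the neutrophil-like labels in every treated mouse. Over all cells of a mouse, S100a9 stood at 13.4 and 3.25 CPM in WT, 167, 570.4 and 228 CPM in i4F, and 141 and 92.2 CPM after caerulein. S100a8 stood at 9.04 and 1.07 CPM in WT, 111, 485 and 129 CPM in i4F, and 97.8 and 54.4 CPM after caerulein. For both genes every treated mouse was above every WT mouse, i4F 2 was highest, and the lowest i4F mouse was above both caerulein mice. Within the neutrophil-like labels S100a9 reached 48825, 70516 and 122698 CPM in i4F and 30533 and 34608 CPM after caerulein, and S100a8 reached 27616, 38123 and 68933 CPM and 18137 and 15288 CPM. Those labels held 85.0%, 80.1% and 93.0% of all S100a9 UMIs of the i4F mice and 75.2% and 76.3% of those of the caerulein mice, and of S100a8 UMIs 72.5%, 51.0% and 92.7%, and 64.6% and 57.0%. In the remaining macrophage labels S100a9 was at 347 and 44.8 CPM in WT, 52.3, 445 and 2.63 CPM in i4F, and 33.9 and 21.6 CPM after caerulein, ranges set by unlike cells. WT has no neutrophil-like label to leave out, and all 226 S100a9 UMIs of these labels in WT 1 lay in 14 cells with UMIs of at least 2 neutrophil markers and all 66 in WT 2 in 4 such cells. In i4F 2, the S100a9 level in the label Macrophages_1 (458 CPM) went with the highest neutrophil marker sum of any macrophage label that is not neutrophil-like (1850 CPM). Of 3257 cells with a macrophage label in i4F 2, 1785 held UMIs of at least 2 neutrophil markers, 389 of them in the neutrophil-like label. Of the 1785, 29.7% had an S100a9 UMI, 69.9% an S100a8 UMI and 71.8% an Lcn2 UMI. The other members lay between 5.43% (Ngp) and 21.7% (Hdc). Since the members disagree, cells marked in this way are not read as neutrophils. The part of neutrophils in Macrophages_1 was not tested.

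**Figure D1:**
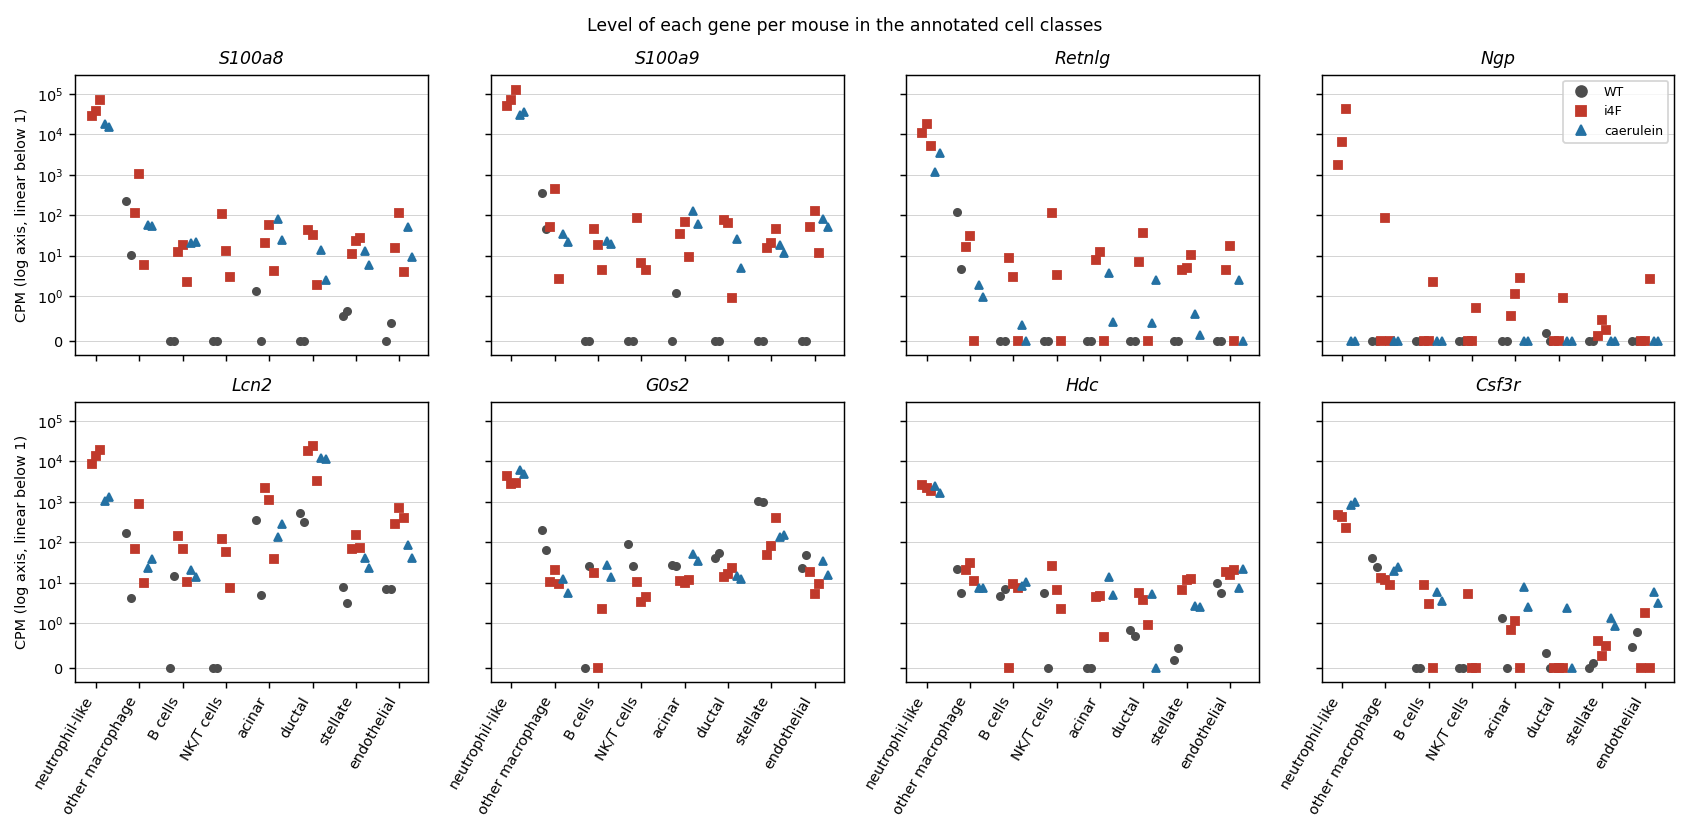
Level of each of the 8 genes in each cell class, 1 point per mouse, in CPM on a symmetric log axis; each panel is 1 gene and colours give WT, i4F and caerulein mice. S100a8, S100a9, Retnlg, Ngp, Hdc and Csf3r peak in the neutrophil-like labels in every treated mouse where the gene had UMIs (Ngp, without an entry for caerulein mice, is drawn at 0 there), Lcn2 stands at 3214 to 24356 CPM in ductal cells of treated mice against 1024 to 18905 CPM in their neutrophil-like labels, and G0s2 in WT mice is highest in stellate cells.

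**Figure D2:**
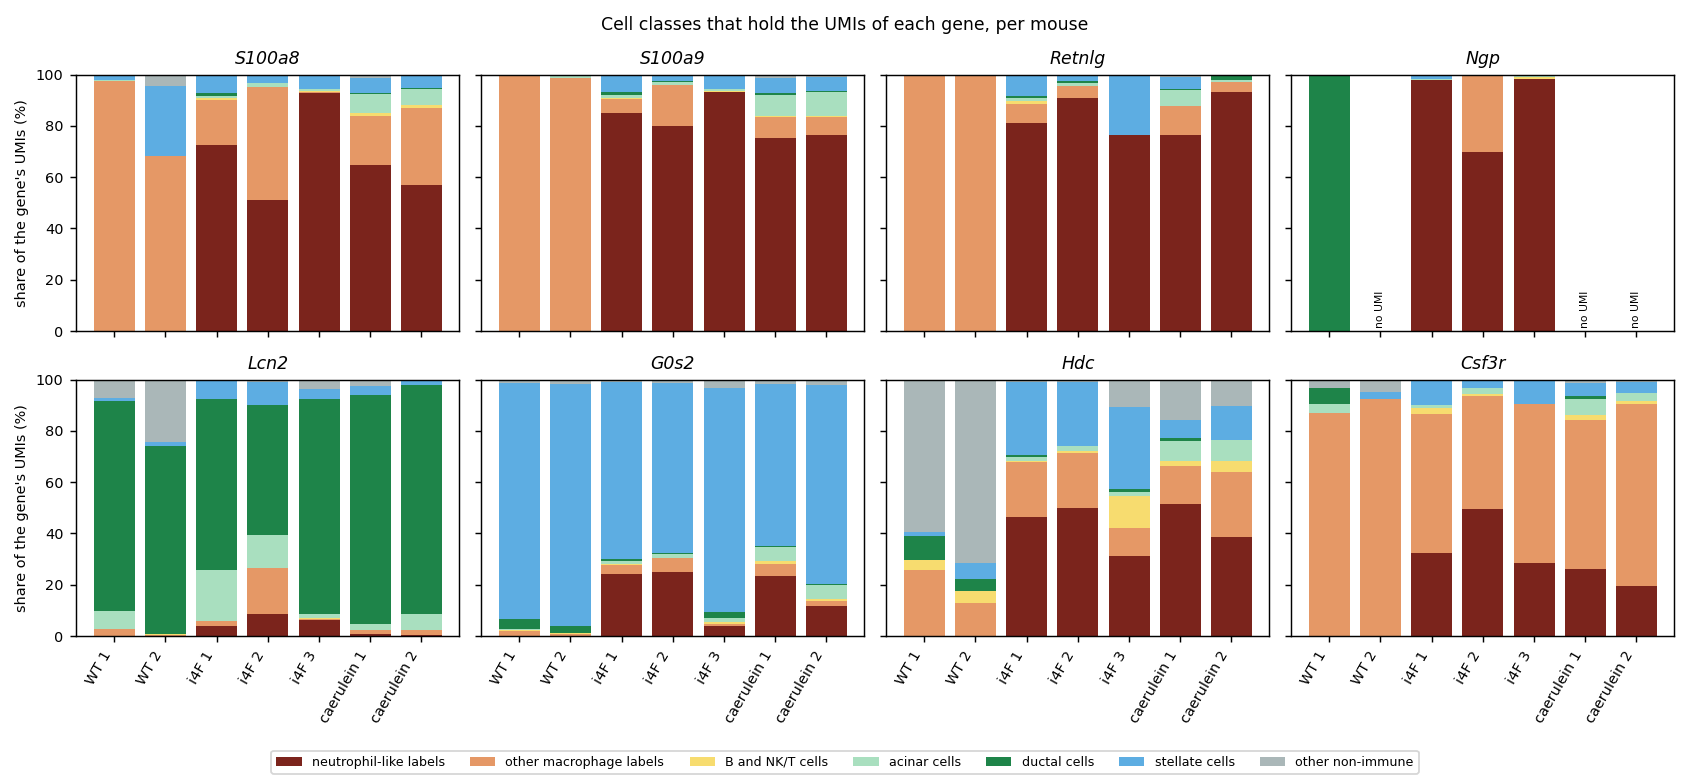
Share of each mouse's UMIs of a gene that came from each cell class, in percent, as stacked bars that sum to 100 where the gene had UMIs. S100a9 came mostly from neutrophil-like labels in treated mice (75.2% to 93.0%), Lcn2 mostly from ductal cells (50.8% to 89.1% in all 7 mice), and G0s2 in WT mice from stellate cells (91.8% and 94.5%).

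The proportion of S100a8 to S100a9 UMIs separated the neutrophil-like labels from their neighbours. It was 0.566, 0.541 and 0.562 in the i4F mice (exact 95% intervals 0.546 to 0.586, 0.527 to 0.554 and 0.530 to 0.595) and 0.594 and 0.442 after caerulein (0.571 to 0.618 and 0.398 to 0.490). In the label Macrophages_1 it was 2.21 and 2.39 in i4F 1 and i4F 2 (1.99 to 2.45 and 2.30 to 2.49) and 1.47 and 2.25 after caerulein (1.33 to 1.64 and 1.79 to 2.86). S100a9 UMIs thus outnumbered S100a8 UMIs in each neutrophil-like label and S100a8 UMIs were in excess in each of these Macrophages_1 samples, with no overlap of intervals. In caerulein 1 the proportion in acinar cells was 0.637 (0.567 to 0.716) and in endothelial cells 0.625 (0.445 to 0.872), both intervals overlapping that of the neutrophil-like label. In i4F 2 it was 0.843 in acinar (0.711 to 1.00), 0.890 in endothelial (0.627 to 1.26) and 1.08 in stellate cells (0.953 to 1.23), all above the interval of the neutrophil-like label and below that of Macrophages_1, while in ductal cells it was 0.529 (0.319 to 0.860), overlapping the neutrophil-like label. In i4F 3 it was 0.462 in acinar (0.212 to 0.948) and 0.577 in stellate cells (0.451 to 0.734), both overlapping it. In i4F 1 it was 0.585 in acinar cells (0.431 to 0.789), overlapping the neutrophil-like label, and 0.723 in stellate cells (0.642 to 0.814), above it. In the WT label Macrophages_2 it was 0.624 and 0.212 (0.502 to 0.773 and 0.110 to 0.382). Intervals cover counting error only.

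**Figure D3:**
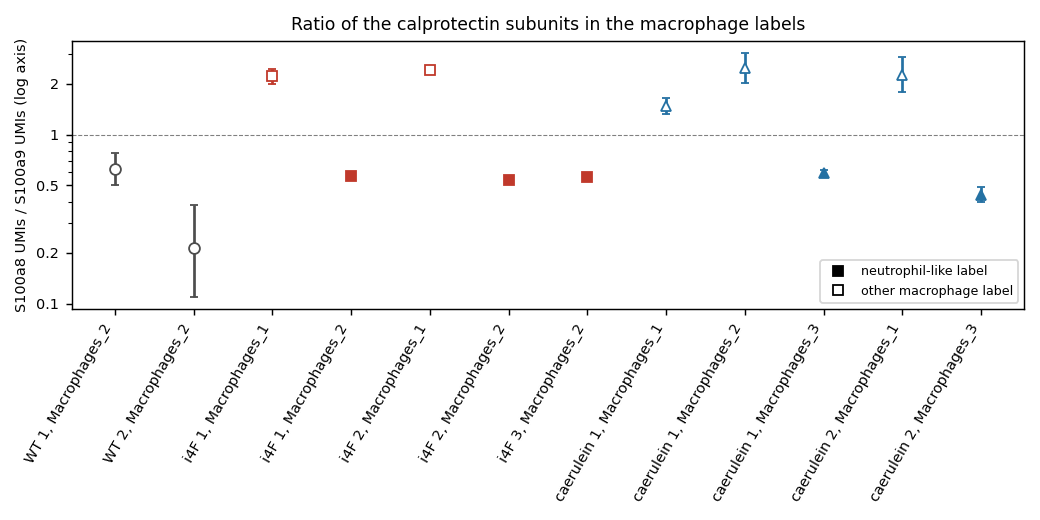
S100a8 UMIs divided by S100a9 UMIs in each macrophage label of each mouse, with exact 95% intervals for counting error; filled points are the neutrophil-like labels. The 5 filled points lie between 0.442 and 0.594, and the i4F and caerulein points of Macrophages_1 between 1.47 and 2.39.

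Retnlg followed S100a9 across labels. Its level over all cells was 4.52 and 0.339 CPM in WT, 37.9, 126 and 11.4 CPM in i4F, and 5.48 and 7.66 CPM after caerulein. The caerulein mice were thus close above WT 1 and below every i4F mouse. In the neutrophil-like labels Retnlg stood at 10539, 17587 and 5044 CPM in i4F and 1201 and 3513 CPM after caerulein, again with no overlap. Those labels held 76.3% to 93.1% of the Retnlg UMIs of a treated mouse.

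Ngp had UMIs in every i4F mouse and was at or near 0 in WT mice. Its level over all cells was 0.0594 CPM (1 UMI) in WT 1, 0 in WT 2, and 5.19, 59.2 and 72.9 CPM in the i4F mice. In the neutrophil-like label of i4F mice it was at 1739, 6393 and 41435 CPM, with the highest value in i4F 3, where 4 of 15 cells carried it. The label held 97.8%, 69.9% and 98.3% of their Ngp UMIs. In i4F 2, 29.4% of Ngp UMIs fell in the remaining macrophage labels.

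Ngp split the neutrophil-like cells of i4F mice by the level of Camp and Ltf. In i4F 1, 11 of 359 cells had an Ngp UMI, and in i4F 2, 81 of 435. Camp, which codes for the secondary granule peptide cathelicidin, was at 5815 and 11308 CPM in those cells and at 6.11 and 17.8 CPM in the cells without Ngp. Ltf, which codes for lactoferrin of the same granules, was at 2791 and 2001 CPM against 30.6 and 59.3 CPM. S100a9 was also higher in the cells with Ngp, at 129022 and 97985 CPM against 42502 and 58135 CPM, and Lcn2 was at 24579 and 19813 CPM against 7555 and 11155 CPM. Csf3r went the other way, at 155 and 263 CPM against 501 and 487 CPM, but the first of these rests on 2 UMIs. Mmp9, another granule gene, differed in direction between the mice, at 155 and 711 CPM against 532 and 641 CPM. Its first value also rests on 2 UMIs. Cells with Ngp had more UMIs (medians 677 and 690 against 435.5 and 432.5), and the part of depth in this split was not tested.

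Hdc and Csf3r were less confined to the neutrophil-like labels than S100a9. Hdc over all cells was at 3.21 and 3.05 CPM in WT, 16.4, 28.1 and 10.1 CPM in i4F, and 16.5 and 8.48 CPM after caerulein, every treated mouse being above both WT mice. The neutrophil-like labels had 2612, 2168 and 1831 CPM in i4F and 2434 and 1612 CPM after caerulein, overlapping ranges, and held 31.2% to 51.5% of Hdc UMIs. Outside leukocytes Hdc was highest in mesothelium, at 17.2 and 46.9 CPM in WT and 74.7 and 54.2 CPM after caerulein. The i4F label Activated_Pancreatic_Stellate_2, which carried the mesothelial gene Msln at 1705 and 2049 CPM in i4F 1 and i4F 2 and at 109.6 CPM in i4F 3, had Hdc at 174, 148 and 11.2 CPM in these mice. Csf3r over all cells was at 1.84 and 1.94 CPM in WT, 4.26, 5.46 and 1.36 CPM in i4F, and 11.3 and 10.3 CPM after caerulein. In the neutrophil-like labels Csf3r was at 476, 417 and 224 CPM in i4F and 842 and 979 CPM after caerulein, the reverse of the order of Retnlg. The remaining macrophage labels held most Csf3r UMIs in WT (87.1% and 92.5%) and 44.2% to 71.0% in the treated mice.

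Single cells of the neutrophil-like labels mostly carried several members at once. The median cell had UMIs of 5, 5 and 6 of the 8 genes in the i4F mice and 4 and 4 of the 7 listed genes in the caerulein mice. After every cell was thinned to 300 UMIs the medians were 4, 5 and 5, and 3.5 and 4, so that the groups met at 4. At that depth the share of cells with an S100a9 UMI was 90.7%, 98.0% and 93.3% in i4F and 90.1% and 91.4% after caerulein (unthinned 91.4%, 97.9%, 93.3%, 89.0% and 94.0%). Thinning kept 332 of 359, 400 of 435, 15 of 15, 406 of 630 and 35 of 84 cells. B cells should lack the gene. In the label B_lymphocytes of i4F 1 and i4F 2 the thinned share was 0.682% and 1.49%, and in the ductal label 1.72% and 0.952%. In the caerulein mice it was 0.407% and 0.269% in the label B_lymphocytes, which carried B cell markers at only 93.0 and 107 CPM there against 3703 to 5512 CPM in the other mice, and 0.304% and 0.426% in the ductal label. In i4F 3 it was 0 of 1284 and 0 of 525 cells, which allows up to 0.234% and 0.571%. Before thinning the medians were 467 to 2205.5 UMIs a cell in the B_lymphocytes labels of treated mice and 2667 to 5590 in the ductal labels. The ductal share was below that of B_lymphocytes in i4F 2 and caerulein 1 and above it in i4F 1 and caerulein 2. Thinning kept 210 to 329 ductal and 336 to 984 B_lymphocytes cells in these mice, so the shares rest on few cells. Their order is therefore not read. The ductal shares are not read as expression, and their source was not tested.

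Over all cells the genes were compared between groups by edgeR's quasi-likelihood test on the UMIs summed per mouse, with Benjamini-Hochberg adjustment over all genes tested (called at an adjusted p under 0.05). Such sums cannot tell more neutrophil-like cells apart from more RNA per cell. With all mice, 0 of 8 members and 0 of 18340 genes (0%) were called between i4F and WT, although 8 members and 6383 genes had an unadjusted p under the threshold and DESeq2 called 7 members and 2309 higher and 1724 lower genes (19.0%). Log2 differences were 6.02 for S100a8 (SE 1.24, edgeR adjusted p = 0.0604), 5.70 for S100a9 (SE 0.911, edgeR adjusted p = 0.0592), 2.61 for Lcn2 and -1.96 for G0s2. Without i4F 3, 8 of 8 members were called, at a background of 49.8% of 19180 genes: 7 higher, from Csf3r at 1.73 to S100a8 at 6.32 and Ngp at 10.37, and G0s2 lower at -2.36. Ngp rests on a single WT UMI, so its ratio of summed levels, 1210.5, has an exact 95% interval of 217 to 47824. It was 544 without WT 2, 2366 without i4F 1 and 710.5 without i4F 2, and at least 222 without WT 1, which held that UMI.

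After caerulein, 5 of 8 members were called against WT. S100a9 (log2 difference 4.27, SE 0.869, edgeR adjusted p = 0.0419), Csf3r (2.90, SE 0.629), Hdc (2.42, SE 0.571) and Lcn2 (2.25, SE 0.494) rose, where 5.15% of all genes were called higher. G0s2 fell (-1.85, SE 0.427, edgeR adjusted p = 0.0484), where 3.94% were called lower. S100a8 (4.40, SE 1.18, edgeR adjusted p = 0.0581) and Retnlg (1.89) were not called, and Ngp was not read. Without the neutrophil-like label 2 members were called, where 9.01% of genes were: Csf3r (2.53, edgeR adjusted p = 0.0452) and Lcn2 (2.25, edgeR adjusted p = 0.0463). G0s2 then stood at -2.13 (edgeR adjusted p = 0.0517). No member stayed called without WT 1, WT 2, caerulein 1 or caerulein 2. Each of these fits left 1 mouse in a group, and nearly all calls over all genes were lost. The count was 0 without i4F 2, where at most 0.977% of genes were called. It was 2 without i4F 1 (background 5.62%) and 6 without i4F 3 (background 46.4%).

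Within the macrophage labels, the neutrophil-like one included, 0 of 8 members were called for i4F against WT (background 0.00828%) and 0 of 8 for caerulein against WT (background 5.66%). At an unadjusted p under the threshold there were 5 and 0 members, and DESeq2 called 3 and 0 (4.56% and 10.8% of genes). Without i4F 3, Hdc (log2 difference 2.96, SE 0.601, edgeR adjusted p = 0.0207) was called higher in i4F, where 12.4% of genes were called. Ngp was called too, but it passed the count filter through i4F mice alone, so its call is a description and its fitted value no bound. The level of Ngp in the i4F macrophage labels was at least 128-fold higher than the 3 UMIs that a count of 0 over both WT mice allows. This limit was 39.3 without WT 2, 251 without i4F 1, 82.0 without i4F 2 and 96.7 without i4F 3. Leaving out the neutrophil-like label takes cells from treated mice only. It gave G0s2 at -3.71 after caerulein (edgeR adjusted p = 0.0355, background 5.81%), but 124 of 132 G0s2 UMIs of the WT 1 macrophage labels lay in the 14 neutrophil-marked cells that stay in that fit. With cells holding UMIs of at least 2 neutrophil markers left out of every mouse instead, G0s2 was at -0.13 after caerulein (edgeR adjusted p = 0.907). Hdc (3.03, edgeR adjusted p = 0.0288) was then called higher, where 8.65% of genes were called. That filter is uneven between the groups. It took out 12 of 14 and 6 of 8 Hdc UMIs of the WT macrophage labels and every WT UMI of S100a9. In the caerulein neutrophil-like labels it took out only 271 of 630 and 34 of 84 cells. G0s2, Hdc and S100a9 are therefore not read in that fit.

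Outside leukocytes the alarmins were near 0 in WT mice and low in every treated mouse. Whether the deposited counts had been corrected for free RNA is not stated, so these low levels may include it. Over all non-immune labels S100a9 was at 0 and 0.0541 CPM in WT, 18.9, 31.1 and 22 CPM in i4F, and 36.7 and 22.2 CPM after caerulein, with no overlap between WT and treated mice. Against the single WT UMI the ratio of summed levels was 798 (exact 95% interval 143 to 31531) for i4F and 1147 (206 to 45329) for caerulein. Without WT 1 these were 431 and 619, without caerulein 1 the second was 760, and without WT 2, which held that UMI, they were at least 122 and 176. For comparison, the labels of B lymphocytes in the same mice held S100a9 at 44.5, 18.1, 4.41, 23.2 and 19.4 CPM. In the caerulein mice that label carried B cell markers at a low level, as given above, so the last 2 values are no B cell background. In ductal cells S100a9 was at 77.5, 62.9 and 0.963 CPM in i4F and 25.8 and 4.92 CPM after caerulein, with 0 UMIs in both WT mice, so the summed level was at least 129-fold and at least 69.6-fold higher. The first limit was 244 without i4F 3, 61.9 without i4F 1, 53.3 without WT 1 and 75.5 without WT 2. The second was 16.6 without caerulein 1, 28.8 without WT 1 and 40.8 without WT 2. In acinar cells it was at 0 and 1.22 CPM in WT, 34.8, 67.1 and 9.01 CPM in i4F, and 127 and 60.3 CPM after caerulein. The neutrophil-like labels held 3.66%, 5.29% and 0.197% of all cells of the i4F mice and 4.16% and 1.19% of those of the caerulein mice. The part of RNA from neutrophils in these levels was not tested.

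Of the members, 0 of 8 were called between i4F and WT in non-immune cells (background 0%; 7 at an unadjusted p under the threshold, and 6 by DESeq2, which called 15.0% of genes) and 1 of 8, S100a9, between caerulein and WT (edgeR adjusted p = 0.0376, background 0.0672% called higher). S100a9 had 1 UMI over both WT mice and passed the count filter through treated mice alone, so its call is a description. With non-immune cells that held leukocyte UMIs left out, S100a9 was no longer called and the caerulein count was 0, where 0% of genes were called. Without i4F 3 the counts were 6 (background 51.6%) and 7 (background 43.0%). The i4F count includes Retnlg, with 0 UMIs over both WT mice, and S100a9, with 1. The caerulein count was 0 without i4F 2, where at most 0.977% of genes were called. S100a9 was also not called without WT 1, WT 2, caerulein 1 or caerulein 2, fits that left 1 mouse in a group. Between i4F and caerulein 0 were called (background 0%; Retnlg and Csf3r had an unadjusted p under the threshold, and DESeq2 called Retnlg at 2.63% of genes), with log2 differences of 2.81 for Retnlg, -2.13 for Csf3r and -0.27 to 0.34 for the other members that have an entry in both tables. Without i4F 3 that count was 1 (background 8.67%). In acinar cells 0 of 6 members tested were called for i4F (background 0.0808%) and 0 of 6 for caerulein (background 0.0359%), with 3 each at an unadjusted p under the threshold and 2 each by DESeq2 (8.36% and 6.72% of genes). Without i4F 3 the i4F count was 4, S100a8, S100a9 and Retnlg higher and G0s2 lower, at a background of 32.7%, and the caerulein count was 3 (background 19.4%). Over both WT mice S100a8 and S100a9 had 1 acinar UMI each and Retnlg had 0. These members passed the count filter through treated mice alone, so the acinar counts are a description. Without i4F 1 the caerulein count was 1 (background 2.88%).

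Lcn2 was the member whose UMIs came mainly from epithelium. Its level in ductal cells was 532 and 321 CPM in WT, 18013, 24356 and 3214 CPM in i4F, and 11939 and 11644 CPM after caerulein. Every treated mouse was above both WT mice, and i4F 3 was well below the other treated mice. The group means were 427 ± 149 CPM (SD, n = 2) in WT, 15194 ± 10849 CPM (SD, n = 3) in i4F and 11791 ± 208 CPM (SD, n = 2) after caerulein. Ductal cells held 81.6% and 73.1% of the Lcn2 UMIs of the WT mice, 66.5%, 50.8% and 84.0% of those of the i4F mice and 89.1% and 88.9% of those of the caerulein mice. At 300 UMIs a cell, the share of ductal cells with an Lcn2 UMI was 8.95% and 9.70% in WT, 82.8%, 85.7% and 33.7% in i4F, and 90.3% and 91.1% after caerulein.

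In ductal cells 2 of 6 members tested were called for caerulein against WT. Lcn2 rose by 4.97 on the log2 scale (SE 0.871, edgeR adjusted p = 0.0293), where 2.88% of genes were called higher, and G0s2 fell by 1.62 (SE 0.347, edgeR adjusted p = 0.0463), where 0.645% were called lower. For i4F against WT 0 of 6 were called (background 0.00861%; 5 at an unadjusted p under the threshold, 3 by DESeq2 at 2.67% of genes), Lcn2 standing at 5.35 (SE 0.869, edgeR adjusted p = 0.190). Without i4F 3 the count was 5 (background 26.5%), with Lcn2 at 5.83 (SE 0.329, edgeR adjusted p = 0.000115) and G0s2 at -1.49. The rest, S100a8, S100a9 and Retnlg, had 0 UMIs in both WT mice and passed the count filter through treated mice alone. Counts that include them are therefore a description. The caerulein count was 0 without i4F 2, where at most 0.977% of genes were called, and 4 without i4F 3 (background 32.2%). No member stayed called for caerulein without WT 1, WT 2, caerulein 1 or caerulein 2, fits that left 1 mouse in a group. With ductal cells that held any leukocyte marker UMI left out, the log2 difference of Lcn2 was 5.03 for caerulein (edgeR adjusted p = 0.0172) and 5.40 for i4F. Lcn2 was then the only member called for caerulein, where at most 17.7% of genes were called, and G0s2 was not.

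Other classes with Lcn2 included a WT label called Lymph_nodes (38 and 50 cells), led by the lymphatic endothelial genes Lyve1 and Ccl21a, with Lcn2 at 1171 and 2137 CPM, above the WT ductal level. Mesothelium had 205 and 180 CPM in WT and 368 and 393 CPM after caerulein. Acinar cells had 357 and 4.89 CPM in WT, 2202, 1121 and 39.5 CPM in i4F, and 138 and 282 CPM after caerulein, ranges that overlapped. The WT 1 acinar value came from 274 UMIs in 8 of 853 cells. Endothelial cells had 7.16 and 6.91 CPM in WT, 281, 721 and 398 CPM in i4F, and 86.4 and 41.3 CPM after caerulein, all treated mice being above WT and all i4F mice above the caerulein mice. These endothelial classes are unlike, since the WT label Lymph_nodes is not part of the WT class. Lyve1 stood at 130 to 329 CPM in the treated endothelial labels, against at most 19.0 CPM in the WT ones. The part of lymphatic cells in the difference from WT was not tested. In the neutrophil-like labels Lcn2 was at 8799, 13845 and 18905 CPM in i4F and 1024 and 1324 CPM after caerulein, and these labels held 0.432% to 8.70% of the Lcn2 UMIs of a treated mouse. In i4F 2 the remaining macrophage labels held 6876 of 38899 Lcn2 UMIs. All immune labels together held 26.5% of the Lcn2 UMIs in i4F 2, against at most 6.99% in the other mice.

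**Figure D4:**
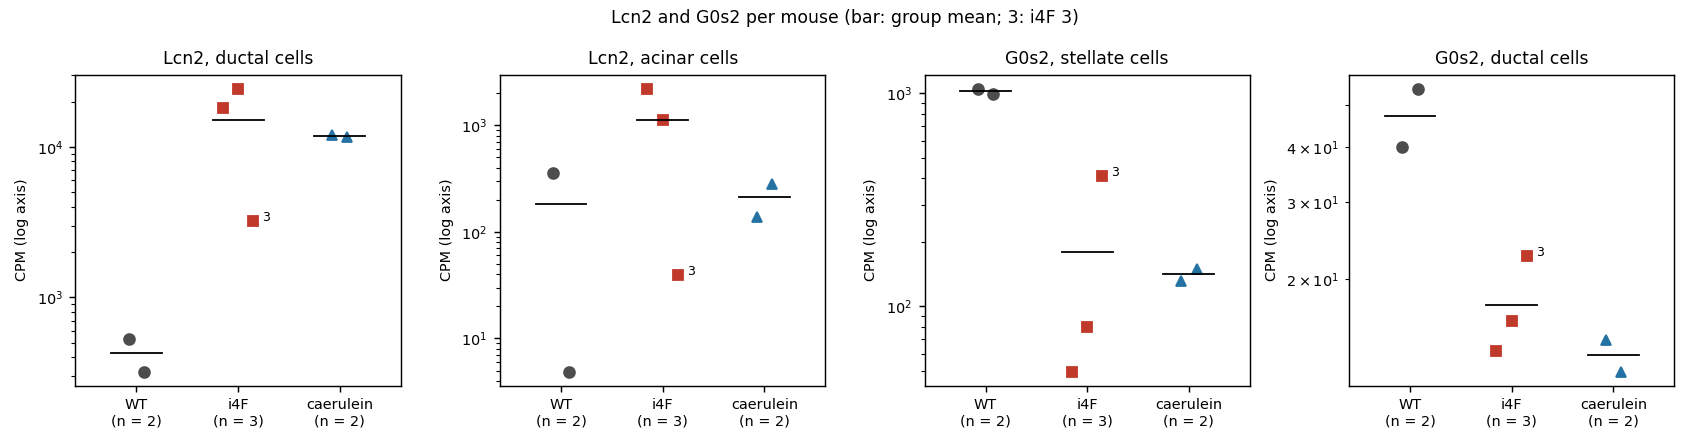
Lcn2 in ductal and acinar cells and G0s2 in stellate and ductal cells, in CPM, 1 point per mouse with a bar at the group mean; the digit beside a point marks the i4F 3 mouse. Ductal Lcn2 is 321 and 532 CPM in WT and 3214 to 24356 CPM in treated mice, and stellate G0s2 is 994 and 1053 CPM in WT and 49.5 to 409 CPM in treated mice.

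G0s2 was lower in treated than in WT mice in stellate and ductal cells, and in acinar cells in i4F mice but not after caerulein. Stellate cells, the matrix-producing fibroblast-like cells of the pancreas, held 91.8% and 94.5% of the G0s2 UMIs of the WT mice. Their level was 1053 and 994 CPM in WT (1024 ± 41.6, SD, n = 2), 49.5, 79.8 and 409 CPM in i4F (179 ± 199, SD, n = 3), and 132 and 151 CPM after caerulein (142 ± 13.1, SD, n = 2). Every treated mouse was below both WT mice, and i4F 3 lay closest to them. In i4F 3, 1167 of 1280 stellate cells carried the label Activated_Pancreatic_Stellate_2, where G0s2 was at 519 CPM, against 144 of 4393 and 126 of 2681 cells in i4F 1 and i4F 2, where it was at 27.6 and 60.2 CPM. In the other i4F stellate label, Activated_Pancreatic_Stellate_1, G0s2 was at 49.9, 80.3 and 77.1 CPM. Within WT the label Quiescent_Pancreatic_Stellate_1 had 1437 and 1312 CPM, Quiescent_Pancreatic_Stellate_2 157 and 89.5 CPM, and Activated_Pancreatic_Stellate 428 and 384 CPM, an order that held in both mice. The WT label Activated_Pancreatic_Stellate carried Rgs5, best known from pericytes, at 4792 and 3620 CPM and the collagen gene Col1a1 at 127 and 62.1 CPM, whereas the treated label with high Rgs5 (1777 to 4298 CPM), Smooth_muscle, is not in the stellate class. At 300 UMIs a cell, 32.3% and 30.5% of WT Quiescent_Pancreatic_Stellate_1 cells had a G0s2 UMI, against 1.80%, 2.41% and 3.70% of i4F Activated_Pancreatic_Stellate_1 cells. In the neutrophil-like labels G0s2 was at 4233, 2826 and 2840 CPM in i4F and 6087 and 4923 CPM after caerulein. These were its highest levels in treated mice, and the labels held 4.01% to 24.8% of the G0s2 UMIs.

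Ductal G0s2 was at 40.0 and 54.5 CPM in WT, 13.7, 16 and 22.6 CPM in i4F, and 14.5 and 12.3 CPM after caerulein, with no overlap of WT and treated mice. Acinar G0s2 was at 27.4 and 25.7 CPM in WT, 11, 9.84 and 11.4 CPM in i4F, and 52.1 and 33.5 CPM after caerulein. The i4F mice were thus below WT in acinar cells and the caerulein mice above. The WT values rest on 42 UMIs, and acinar totals lack the abundant acinar genes without an entry. The part of this in the order of the groups was not tested. The fitted acinar log2 differences were -1.42 for i4F (edgeR adjusted p = 0.118; without i4F 3 -1.71, edgeR adjusted p = 0.00633) and 0.13 for caerulein (edgeR adjusted p = 0.891). Smooth muscle, a label of treated mice only, had G0s2 at 81.0, 218 and 283 CPM in i4F and 224 and 385 CPM after caerulein.

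In stellate cells, a class added after G0s2 had been seen to peak there, 5 of 6 members tested rose in i4F mice where 12.0% of genes were called higher. Of these, S100a9 and Retnlg had 0 UMIs in both WT mice and passed the count filter through treated mice alone. The counts of members in this class are therefore a description. Lcn2 rose by 4.32 on the log2 scale (SE 0.593, edgeR adjusted p = 0.0169) from 7.87 and 3.18 CPM to 67.0, 147 and 72.5 CPM. Hdc rose by 4.98 (SE 0.535, edgeR adjusted p = 0.0115) from 0.187 and 0.438 CPM to 6.51, 11.4 and 12.4 CPM. S100a8, S100a9 and Retnlg rose from 0 or near 0 to at most 46.8 CPM, S100a9 at least 91.7-fold (57.9 without WT 1 and 33.8 without WT 2) and Retnlg at least 23.9-fold (15.1 and 8.83). Neutrophil genes other than the members were called higher in the same fits. Of granule genes these were 7 of 9 in i4F and 5 of 9 after caerulein. Of neutrophil surface and signalling genes they were 9 of 13 and 7 of 13. The part of leukocyte RNA in these levels was not tested. G0s2 was at -2.34 (SE 0.819, edgeR adjusted p = 0.0784) and fell by 3.85 without i4F 3 (SE 0.248, edgeR adjusted p = 0.000108), when 6 of 7 were called (background 47.8%). After caerulein 4 of 6 rose (background 9.99% called higher): S100a8, S100a9, Lcn2 (2.76, SE 0.578, edgeR adjusted p = 0.0271) and Hdc (3.06, SE 0.572, edgeR adjusted p = 0.0214). Without the i4F label Activated_Pancreatic_Stellate_2, 6 of 7 members were called in each comparison (backgrounds 48.2% and 38.9%) and G0s2 fell by 3.74 in i4F (edgeR adjusted p = 2.5e-05). Without the WT label Activated_Pancreatic_Stellate, 5 and 4 of 6 members were called (backgrounds 19.6% and 15.3%) and G0s2 was at -2.42 for i4F (edgeR adjusted p = 0.0733). With stellate cells that held a leukocyte marker UMI left out, 3 of 5 members were called in each comparison, S100a9, Lcn2 and Hdc (backgrounds 17.7% and 13.8%). The i4F count was 0 without WT 1, WT 2 or i4F 2 and 3 without caerulein 1 (background 0.671%), and the caerulein count was 0 without WT 1, WT 2, caerulein 1 or caerulein 2 and 7 without i4F 3 (background 39.7%).

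**Figure D5:**
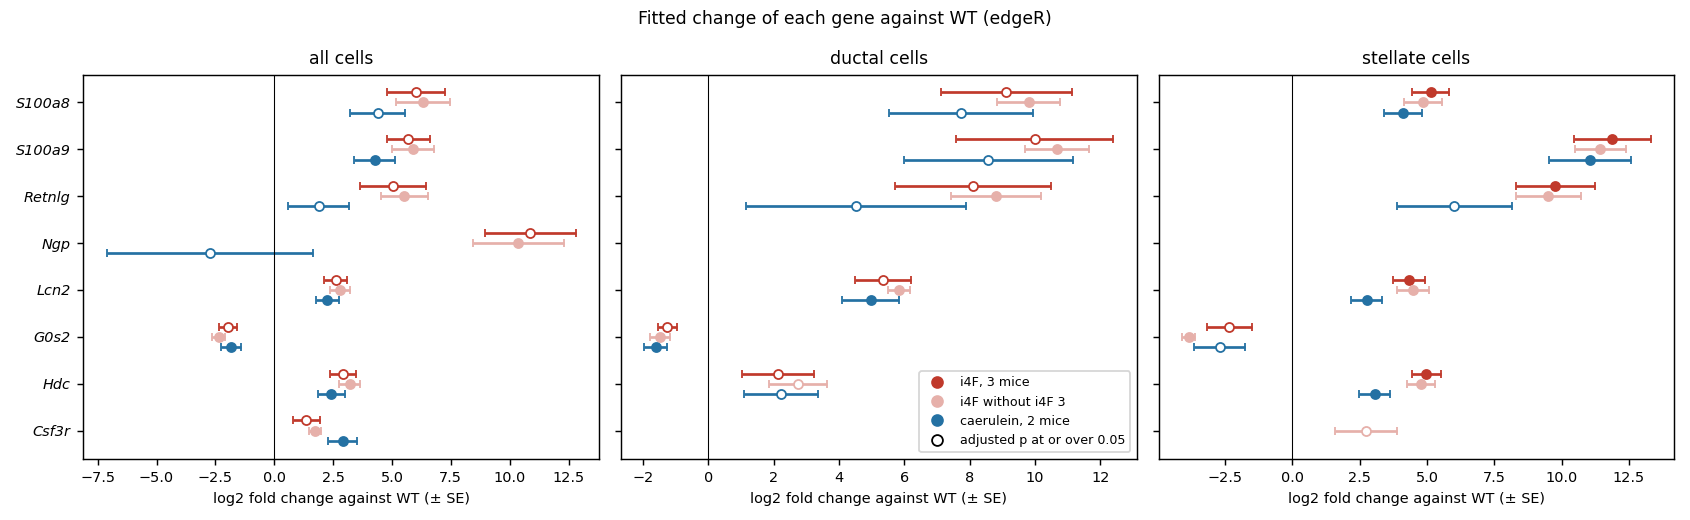
Log2 difference from WT of each gene in all cells, ductal cells and stellate cells with its standard error, for the 3 i4F mice, for i4F without i4F 3 and for caerulein; open points have an edgeR adjusted p at or above 0.05. G0s2 lies below 0 in each panel (-1.96 and -1.85 over all cells) and Lcn2 above 0 (2.61 and 2.25), while fitted values of genes with 0 UMIs in WT are no bounds.

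Lists of related genes were read in the same fits, with the same backgrounds: 5.15% of all genes were called higher after caerulein over all cells and 49.8% were called in i4F without i4F 3. Over all cells after caerulein, 2 of 13 granule genes tested were called higher, Lyz2 (3.86) and Padi4 (3.33), and the median log2 difference of that list was 2.77 against -0.06 over all genes. Of 17 neutrophil surface and signalling genes 4 were called higher, among them Clec4e (4.86), Csf3 (4.54), the gene for G-CSF, and Mxd1 (2.02). Of 8 chemoattractants 3 were called higher, Cxcl5 (6.87), Ccl6 (4.78) and Csf3. The alarmin partners had 1 of 13, S100a4 (4.0), and the lipolysis partners of G0s2 had 1 of 4, Plin2 (3.24), which codes for a lipid droplet coat protein. Of the resistin family (2 tested), lipocalin partners (3) and histamine genes (3), 0 were called by edgeR and 1 gene each had an unadjusted p under the threshold; DESeq2 was not read for the lists.

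For i4F against WT over all cells 0 genes of any list were called with all mice, at medians of 4.14 for granule genes, 4.39 for surface and signalling genes and 3.53 for chemoattractants, and with 11, 15 and 7 genes at an unadjusted p under the threshold. Without i4F 3, 12 of 13 granule genes and 7 of 8 chemoattractants were called higher, and of the surface and signalling genes 14 of 17 were higher and 1 lower. Of 13 alarmin partners 5 were higher and 1 lower. Of 3 histamine genes 2 were lower, Hnmt (-2.44), which codes for the enzyme that inactivates histamine, and Hrh2 (-2.48), a histamine receptor gene, and Hrh1 was not called (0.21). Of the 4 lipolysis partners Lipe (-2.16), which codes for hormone-sensitive lipase, was lower, and Abhd5 (1.81), which codes for the activator of ATGL, and Plin2 (2.03) were higher. Retn (4.02) was the higher resistin gene, and Slc22a17 (-0.66), a lipocalin receptor gene, was lower. These counts stand against the 49.8% of all genes called in that fit.

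Across 83 sums of a mouse and label with at least 50 cells, the gene of 17246 whose level on the scale log2(CPM + 20) was most like that of each member was S100a9 for S100a8 (Pearson r = 0.977) and S100a8 for S100a9. It was Stfa2l1 for Retnlg (r = 0.950), Camp for Ngp (r = 0.991), Mrgpra2b for Hdc (r = 0.906) and Cxcr2 for Csf3r (r = 0.942), each of them on the neutrophil marker list. For Lcn2 the nearest was Sgms2 (r = 0.701) and for G0s2 it was Slc2a3 (r = 0.726), and Lcn2 and G0s2 were themselves at r = 0.106. Sums of the same mouse share a library, so these values are a description.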

How the data were processed

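Pancreata of 7 mice were dissociated and profiled with the 10x Genomics 3′ kit. Per the study's methods, the authors aligned reads to mm10 with Cell Ranger, corrected free RNA with SoupX, kept cells that had 150 genes or more and no more than 5% mitochondrial UMIs, and clustered with Seurat (SCTransform, 20 principal components, resolution 0.2). The deposited tables hold raw UMI counts per gene and cell, and whether they precede or follow SoupX is not stated. Cell labels are the authors'. Libraries held 15469018 to 64784216 UMIs. Exact 95% intervals of a level cover counting error only, not the spread between mice.

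The 8 genes, the marker lists and the gene lists were chosen with earlier results of these data known. The genes named in the text were the 8 members, the genes of 8 lists of related genes, the markers that define a label, and the nearest gene of each member by Pearson correlation (sums of at least 50 cells, genes with at least 100 UMIs, 20 CPM added). The text also names leading genes of a label and Camp, Ltf and Mmp9 in the Ngp split, chosen after their values were seen.

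UMIs were summed per mouse and class (at least 20 cells) and tested with edgeR 4.0.16 in R 4.3.3 (quasi-likelihood, two-sided, TMM scaling, filterByExpr, 7 mice in 3 groups, Benjamini-Hochberg over all genes, threshold 0.05), checked on simulated counts. A member with at most 1 UMI over the WT mice of a class passed filterByExpr through treated mice alone, so its calls there are not read as support. Each result was recomputed with DESeq2 1.42.0, without TMM, without the filter, on 2 groups only, with the library name series or the replicate number in the model, on cells of 500 or more genes, without Scrublet doublets and with each mouse left out. Non-immune, acinar, ductal and stellate cells were also refitted without cells holding leukocyte UMIs, and all cells and macrophage labels without cells holding UMIs of at least 2 neutrophil markers. The stellate class, the fits without the neutrophil-like, the i4F Activated_Pancreatic_Stellate_2 or the WT Activated_Pancreatic_Stellate label and the crossed pairing were added after seeing the data. Summaries used Python 3.11.15, scanpy 1.11.5, scipy 1.17.1, numpy 2.4.6 and pandas 2.3.3. Shares of cells used cells thinned to 300 UMIs. A count of 0 was taken to allow 3 UMIs. Scrublet called 2.35% to 5.17% of cells in 5 libraries but 0.0462% in WT 1 and 0% in i4F 3, where it did not work; doublets stayed in the data otherwise. The labels say that mice are separate animals only through separate samples, so p-values measure the spread between these samples. Gene lengths do not enter 3′ counts. The proportion of S100a8 to S100a9 UMIs is compared across cells and is not read as their proportion in the cell.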

Additional observations from a re-analysis of the deposited data

Results flagged for a closer look

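G0s2 lay on opposite sides of WT in different cell classes of the caerulein mice. In acinar cells both caerulein mice were above both WT mice, with a log2 ratio of group means of 0.69, but the fitted log2 difference was 0.13 (edgeR adjusted p = 0.891) and was not called. In ductal cells both caerulein mice were below both WT mice, with a log2 ratio of -1.82 and a fitted difference of -1.62 (edgeR adjusted p = 0.0463). In stellate cells they were below as well, with a ratio of -2.85 and a fitted difference of -2.70 that was not called (edgeR adjusted p = 0.0864). The difference between the classes was not tested.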

How the results depend on the processing

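Of 43 differences of single genes, those called with all mice or, for i4F against WT, without i4F 3, followed over 721 alternative fits, 0 changed sign; 506 fits kept the side of the threshold, 105 moved a difference past it and 110 moved it back. Of the 49 other differences tested, 21 changed sign in some fit. Counts of members called moved as follows, with the share of all genes called in the same fits, and the cause was not tested. All 8 members were tested over all cells and in non-immune cells and macrophage labels with all mice, but 6 in acinar, ductal and stellate cells. DESeq2 (2.63% to 20.3% of genes) called 7 for i4F over all cells, 6 for i4F and 7 for caerulein in non-immune cells, 1 between i4F and caerulein, 2 and 2 in acinar cells, 3 and 4 in ductal cells, 3 for i4F in macrophage labels and 7 for caerulein in stellate cells. With no filter on low counts (4.29% to 14.3%) the numbers were 7 for i4F over all cells, 6 and 5 in non-immune cells, 5 and 3 in acinar cells, 5 and 5 in ductal cells, 6 and 3 in macrophage labels and 7 for caerulein in stellate cells. Without TMM scaling (13.1% and 0.577%) they were 6 for i4F over all cells and 2 for caerulein in non-immune cells. Over all cells after caerulein that setting called 652 genes higher and 2262 lower in place of 944 and 722, with the all-gene median at -0.45 in place of -0.06; DESeq2 called 2605 and 2441. With cells of at least 500 genes (0.813% to 9.08%), caerulein counts were 2 over all cells, 3 in non-immune cells, 1 in ductal cells and 1 in macrophage labels. Without Scrublet doublets (0.00563% and 5.30%) they were 1 for i4F in non-immune cells and 1 for caerulein in ductal cells. Without cells holding leukocyte UMIs (0% to 17.7%) they were 0 for caerulein in non-immune cells, 1 for caerulein in ductal cells and 3 for i4F in stellate cells. Without the neutrophil-like label (9.01% and 5.81%) caerulein counts were 2 over all cells and 1 in macrophage labels. Without neutrophil-marked cells (8.65%) 2 were called in macrophage labels, S100a9 and Hdc. That filter removes all WT UMIs of S100a9 there and most of those of Hdc, so neither is read. With 2 groups only (0.757% to 42.3%) they were 6 for caerulein in non-immune cells, 2 for caerulein in acinar cells and 3 for i4F in stellate cells. With the library name series as a term (0% to 0.108%) the counts were 0 for caerulein over all cells and in non-immune, ductal and stellate cells, and 0 for i4F in stellate cells.

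The replicate numbers did not pair the mice: deviations of same-numbered mice correlated at -0.0944 and 0.0147 (WT and i4F) and -0.544 (WT and caerulein). The fit with the replicate block (6.60% to 46.6% of genes) called 8 for i4F over all cells, 7 and 6 in non-immune cells, 5 and 3 in acinar cells, 5 and 4 in ductal cells and 2 for i4F in macrophage labels; i4F 3 has no partner and adds no information there. With the numbers crossed between WT and caerulein (52.0% and 31.6%), the counts were 6 in non-immune and 2 in acinar cells.

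Leaving out 1 mouse at a time (0% to 51.6% of genes) gave 0 to 8 for i4F and 0 to 6 for caerulein over all cells, 0 to 6 and 0 to 7 in non-immune cells, 0 to 1 between i4F and caerulein, 0 to 4 and 0 to 3 in acinar cells, 0 to 5 and 0 to 4 in ductal cells, 0 to 2 for i4F in macrophage labels, and 0 to 6 and 0 to 7 in stellate cells. Where that left a group with 1 mouse, it was assumed to vary like the other groups. Leaving out i4F 3 was the only omission that moved the i4F count over all cells and in non-immune, acinar, ductal and macrophage cells. In stellate cells the omissions of WT 1, WT 2, i4F 2 and caerulein 1 moved it more. With 2 or 3 mice a group, and few UMIs of S100a8, S100a9, Retnlg and Ngp in WT, adjusted p-values near the threshold carry little weight.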
